A study of Mus musculus with 2 samples.

Results

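The 34 interferon-stimulated genes described here were chosen by symbol from the gene list of the single-cell tables, and 33 of them were found among the 33083 genes listed. Symbols matched 32 of them, and Ddx58 was matched by its identifier because the tables list it as Rigi. Mx2 was not analysed here. The study compared the colon of wild-type mice (WT) with that of mice carrying the APP/PS1-21 transgenes, a model of Alzheimer's disease (AD) that forms amyloid, with 1 droplet library per genotype. The labels give neither age nor sex, nor how many animals each suspension came from. By its title the study asks about tuft cells of the gut, gut homeostasis and cognition. Its design text speaks of colonic epithelium, while the protocol takes the whole colon. Minced colon was digested with trypsin and DNase I, and red cells were lysed before droplet capture. With 1 library per genotype there was no test between genotypes, and every interval below is an exact 95% interval that covers counting error only.

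Interferons are secreted proteins that cells release when they sense viral or bacterial nucleic acid. Type I and type III interferons act through receptors that activate a complex with Stat2 and Irf9, which binds the interferon-stimulated response element (ISRE) in the promoters of antiviral genes. Interferon gamma, from lymphocytes, acts through the gamma-activated site (GAS), and Irf1 is an early target. In the gut, epithelial cells respond chiefly to type III interferon, while stromal and immune cells carry the type I receptor.

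Stretches of promoter are shown for a hand-picked set of members, all of which hold a match to an element of this pathway. They come from the RefSeq promoter table (build GRCm38.p6), with windows from 250 bases before to 50 bases after each start site, and are written 5′ to 3′ along the gene's own strand. Capitals mark matches to the ISRE core (GAAA, any 2 bases, GAAA) or to the GAS motif TTCNNNGAA, each searched on both strands, so that an ISRE core on the other strand begins with TTTC and ends with TTTC. Adjacent ISRE matches can overlap each other, as in Isg15 and Bst2, and an ISRE match can overlap a GAS match, as in Bst2.
Ifit1bl1, chr19:34602048-34602087, minus strand: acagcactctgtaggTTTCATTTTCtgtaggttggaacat
Ifit1, chr19:34640770-34640828, plus strand: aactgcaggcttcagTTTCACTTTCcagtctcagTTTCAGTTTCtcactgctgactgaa
Ifit3, chr19:34583358-34583431, plus strand: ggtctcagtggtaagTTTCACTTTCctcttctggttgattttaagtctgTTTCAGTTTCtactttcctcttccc
Ifit3b, chr19:34607754-34607827, plus strand: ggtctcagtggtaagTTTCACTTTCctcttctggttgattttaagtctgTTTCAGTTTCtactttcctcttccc
Oas1a, chr5:120907526-120907560, minus strand: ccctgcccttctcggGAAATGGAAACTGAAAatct
Isg15, chr4:156200860-156200911, minus strand: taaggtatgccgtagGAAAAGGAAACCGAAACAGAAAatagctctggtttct
Bst2, chr8:71537572-71537623, minus strand: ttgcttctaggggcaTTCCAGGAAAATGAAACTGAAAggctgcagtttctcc
Rsad2, chr12:26456548-26456587, minus strand: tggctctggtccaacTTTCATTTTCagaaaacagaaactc
Irf1, chr11:53769909-53769947, plus strand: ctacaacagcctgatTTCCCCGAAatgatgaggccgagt
Isg20, chr7:78913336-78913374, plus strand: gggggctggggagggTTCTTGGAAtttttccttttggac

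None of these stretches overlaps an annotated exon of GENCODE M21. A match is a run of letters and not a measured binding site. The ISRE core was found in the windows of 16 of the 26 members in the promoter table, against 3.99% of all 27025 genes there. The GAS motif was found for 7 of the 26, against 9.55% of all genes. Irf7, Irf9 and Oasl1, which are described below, had neither motif in their windows. Oas1a has a further GAS match 98 bases before its start site, outside the stretch shown. The Ifit1 stretch lies upstream of a second member as well, since Ifit1bl2 starts on the opposite strand 146 bases away and holds the same pair of ISRE cores. The Ifit3 and Ifit3b stretches did not differ at any of their 74 bases. Ifi27, Mx1, Oas2, Parp14, Rtp4, Usp18 and Zbp1 are named only.

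The 2 libraries held 26898149 (WT) and 38731915 (AD) UMIs over 4146 and 6675 barcodes. After filters of at least 500 UMIs, 200 genes and at most 25% mitochondrial UMIs, 1546 WT and 4687 AD cells were kept, with median depths of 3714.5 and 3720.0 UMIs. More barcodes exceeded the mitochondrial limit in the WT library, 60.4% against 29.2% in AD. The libraries shared 7 barcode sequences, 2 of them among kept cells. Levels are UMIs per 1000000 non-mitochondrial UMIs, written CPM. Colon epithelial markers summed to 15204 (WT) and 15407 (AD) CPM in epithelial-like cells, with 2 of the 13 markers at 0 in both. Plasma cell markers in endothelial-like cells stood at 509.9 CPM in WT and 24044 CPM in AD, and in epithelial-like cells at 465 and 3685 CPM.

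Endothelial-like cells carried the highest summed level of the 33 genes in both libraries. It was 2368 CPM (2184 to 2563, 87 cells) in WT and 2371 CPM (2162 to 2593, 77 cells) in AD. Among the other classes with at least 20 cells in both libraries, plasma-like cells had 960.4 and 973 CPM, fibroblast-like cells 915 and 941 CPM, and macrophage and monocyte-like cells 847 and 979 CPM. The intervals of these classes overlapped in both libraries, so their order is not resolved on this scale. In plasma-like cells the 11 plasma cell markers alone made up 387560.1 CPM in WT and 401553 CPM in AD. That share of the denominator lowers the CPM of every other gene in plasma-like cells. It bears on each comparison of plasma-like cells with another class below, and levels without it are not given here. Smooth muscle and pericyte-like cells had 881 and 822 CPM, and lymphocyte-like cells 778 and 797 CPM. Epithelial-like cells as a whole were lower, at 434 CPM (419 to 449.7, 536 cells) and 408 CPM (398 to 419, 1434 cells). B-like cells were lowest, at 328 and 279 CPM, although in WT their interval overlapped that of crypt-like cells (337 CPM). Enteric glia-like cells, 36 in WT and 3 in AD, had 1639.5 CPM in WT. With each cell thinned to 1000 UMIs, endothelial-like cells still stood above epithelial-like cells, with 3 or more member UMIs in 35.2% of WT and 50.0% of AD endothelial-like cells against 3.43% and 2.24% of epithelial-like cells. Over 20 draws the AD counts ranged from 20 to 30 of 60 and from 15 to 30 of 1337 cells, and the WT counts from 22 to 31 of 71 and from 10 to 20 of 466. The thinned cells numbered 71 and 60 for endothelial-like and 466 and 1337 for epithelial-like cells, after 16 and 17 and then 70 and 97 shallower cells were left out, and the unthinned shares were 65.5% and 70.1% against 60.4% and 56.1%.

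**Figure D1:**
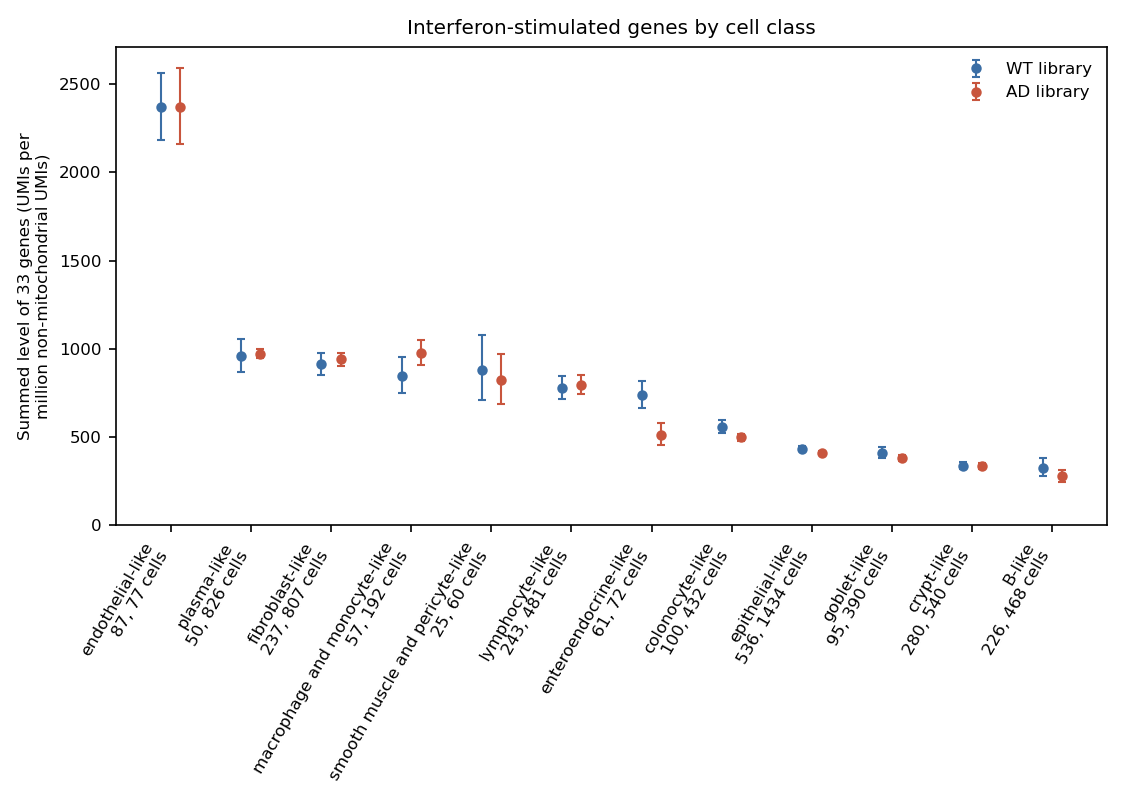
Summed level of the 33 genes (CPM) in each cell class with at least 20 cells in both libraries, with exact 95% Poisson intervals that cover counting error only. Points are 1 library each, and the endothelial-like cells stand above all other classes, at 2368 and 2371 CPM.

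The sensors did not share 1 distribution. Among the classes Ifih1, which encodes the double-stranded RNA sensor MDA5, was highest in colonocyte-like cells in both libraries, at 66.8 and 68.6 CPM. Those values lay within counting error of fibroblast-like cells in WT (62.3 CPM) and of macrophage and monocyte-like cells in AD (67.1 CPM). Within the lymphocyte-like class, cluster 24 (leading genes Tnfrsf4 and Foxp3) had 104 CPM of Ifih1 in WT and 140.1 CPM in AD, from 7 and 46 UMIs. Ddx58, which encodes RIG-I, was instead at 96.6 and 105.0 CPM in endothelial-like cells and at 5.91 and 8.07 CPM in colonocyte-like cells. Zbp1, a sensor of Z-form nucleic acid, was highest in plasma-like cells, at 53.0 CPM in WT and 75.9 CPM in AD. The lymphocyte-like level of Zbp1 came next, at 44.4 and 22.5 CPM, and the 2 classes were separated by counting error in AD only.

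Among the transcription factors, Irf1 gave 21.9% of all member UMIs in WT kept cells and 15.5% in AD. Its level in endothelial-like cells was 556.0 and 453.0 CPM, 2.14-fold and 2.16-fold above the next class, enteric glia-like cells in WT and smooth muscle and pericyte-like cells in AD. It was found in 58.6% of WT and 58.4% of AD endothelial-like cells. Irf9, a DNA-binding partner of Stat2, was also highest there, at 96.6 and 164.0 CPM. Irf7, which amplifies type I interferon production, was similar in colonocyte-like (35.5 and 36.1 CPM) and endothelial-like cells (34.8 and 39.8 CPM). The Irf7 gene overlaps Phrf1 on the opposite strand, and the Irf9 gene overlaps Rnf31 on the same strand. Of the other members, only Rtp4 overlaps a listed gene on the same strand, Gm45338. How reads in such overlaps were counted is not given in the sources used here.

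The IFIT genes encode proteins that bind foreign RNA. Ifit1 stood at 38.6 and 39.8 CPM and Ifit3 at 34.8 and 34.9 CPM in endothelial-like cells, within counting error of each other, and those Ifit1 UMIs came from 4 WT and 3 AD cells. Fibroblast-like cells had 29.0 and 21.2 CPM of Ifit2. Ifit1bl1, a relative of Ifit1, was not detected in endothelial-like cells of either library, where 3 counts would be 11.6 CPM (WT) and 14.9 CPM (AD). Colonocyte-like cells had 43.7 CPM in WT and 7.67 CPM in AD, and in AD this lay within counting error of lymphocyte-like cells (6.84 CPM). Ifit1bl2, which shares the promoter stretch of Ifit1, had 5.91 and 0.606 CPM in colonocyte-like, 3.86 and 0 CPM in endothelial-like and 2.15 and 2.23 CPM in fibroblast-like cells, from 10 or fewer UMIs each. At least 2 of Ifit1, Ifit2, Ifit3 and Ifit3b occurred together in 0 epithelial-like cells, in 4 WT and 10 AD fibroblast-like cells, and in 3 endothelial-like cells of each library. The last 300 bases of Ifit3 matched Ifit3b at 94.3%, those of Ifit1bl1 matched Ifit1bl2 at 88.7%, and those of Oas1a matched Oas1g at 96.7%. No window of 91 bases was identical within a pair (0 of 210), and how the counting divided reads between them was not tested.

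OAS proteins make a signal that activates RNase L, and Oasl1 is a family member that restrains Irf7 translation. Oas1a was highest in colonocyte-like cells among the classes with at least 20 cells in both libraries, at 32.5 and 16.8 CPM. Endothelial-like cells had 1 and 0 UMIs, where 3 counts would be 11.6 CPM (WT) and 14.9 CPM (AD). Goblet-like cells had 9.59 and 6.34 CPM, and macrophage and monocyte-like cells 6.34 and 5.37 CPM from 2 and 4 UMIs. Oasl1 was spread over B-like (38.9 CPM in WT, 5.58 in AD), plasma-like (31.3 and 40.1 CPM) and colonocyte-like cells (20.7 and 28.9 CPM). Of its 26 UMIs in AD lymphocyte-like cells, 20 came from 1 cell. Oas2 and Oas3 stayed under 10 CPM in every class with at least 20 cells in both libraries.

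Mx1, an antiviral GTPase, was highest in goblet-like cells among cells kept at the 25% mitochondrial limit, at 15.6 CPM in WT and 30.7 CPM in AD. It was found in 16.8% of WT and 16.4% of AD goblet-like cells, and it had 0 UMIs in endothelial-like cells of both libraries. The next class, macrophage and monocyte-like cells, had 6.34 and 14.8 CPM, separated from goblet-like cells by counting error in AD (2.08-fold, 1.13 to 4.26) and not in WT (2.46-fold, 0.616 to 21.4). The guanylate-binding proteins, which coat intracellular microbes, ran the other way. Gbp2 stood at 116.0 and 105.0 CPM and Gbp7 at 108.0 and 184.0 CPM in endothelial-like cells, and both were under 5 CPM in goblet-like and colonocyte-like cells. Gbp3 was at similar levels in endothelial-like (34.8 and 44.8 CPM) and plasma-like cells (33.7 and 54.3 CPM).

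Bst2, also called tetherin, holds budding virus at the cell surface and was highest in plasma-like cells, at 363.0 CPM in WT and 308.0 CPM in AD. It was present in 68.0% and 74.1% of those cells, and the next class, endothelial-like cells, had 247.0 and 199.0 CPM. If Jchain, a plasma cell transcript, traces free plasma RNA, that RNA could give 8.77% of the Bst2 UMIs of AD endothelial-like cells and 0.141% of those in WT. Isg20, an exonuclease, was high in goblet-like (101.0 and 102.0 CPM), plasma-like (106.0 and 100.5 CPM) and enteroendocrine-like cells (121.0 and 96.6 CPM). The intervals of those 3 classes overlapped within each library, and endothelial-like cells had 5 and 1 UMIs of Isg20. Rsad2, which encodes viperin, was highest in endothelial-like cells (119.7 and 184.0 CPM) among the classes with at least 20 cells in both libraries, followed by enteroendocrine-like cells (85.3 and 113.0 CPM), a difference within counting error in WT (1.40-fold, 0.855 to 2.28). The 11 WT and 6 AD erythroid-like cells had 172.0 and 312.0 CPM of Rsad2, from 11 and 8 UMIs. In WT enteroendocrine-like cells 31 of the 43 Rsad2 UMIs came from 1 cell, and in AD the 61 UMIs were spread over 21 of 72 cells. Ifi44 stood at 46.4 and 54.8 CPM in endothelial-like cells and at 3.22 and 3.35 CPM in fibroblast-like cells.

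**Figure D2:**
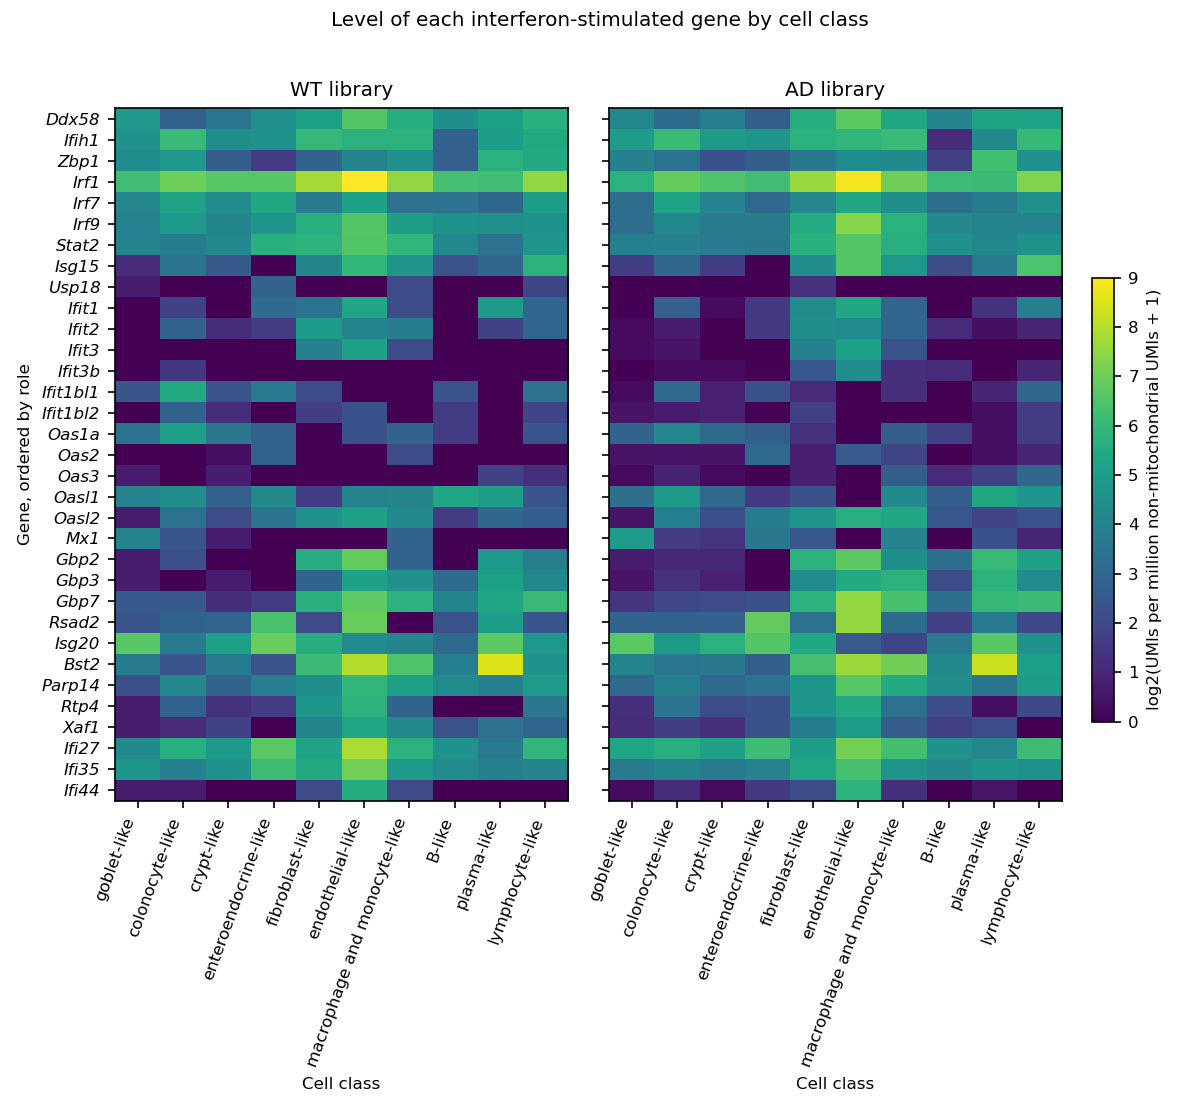
Level of each of the 33 genes in 10 cell classes of each library, coloured by log2(CPM + 1). Irf1 is the brightest row, while Bst2 is brightest in plasma-like cells and dim in colonocyte-like and enteroendocrine-like cells. The endothelial-like column is bright for most genes but dark or dim for others, among them Mx1, Ifit1bl1, Oas1a and Isg20.

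Counted at 1.5-fold over genes with at least 20 UMIs in the pair, endothelial-like cells exceeded epithelial-like cells for 17 of 23 members in WT, where 4064 of all 11954 genes did, and for 20 of 26 in AD, where 43.4% did. Members lower in endothelial-like cells numbered 4 in each library (34.4% and 24.8% of all genes), and Oas1a, Mx1 and Isg20 were among them in both. Within the epithelium, colonocyte-like cells exceeded the other epithelial-like cells for 12 of 20 members in WT (14.7% of all genes) and 13 of 23 in AD (16.7%). Crypt-like cells were lower for 13 of 20 in WT (17.7%) and 10 of 23 in AD (12.9%). The summed level was 337 and 335 CPM in crypt-like, 413 and 382 CPM in goblet-like, 558 and 499 CPM in colonocyte-like and 738 and 515 CPM in enteroendocrine-like cells, where the intervals of the last pair overlapped in AD. Goblet-like cells had Ddx58, Zbp1, Mx1 and Isg20 at least 1.5-fold above other epithelial-like cells in both libraries, among 5 of 20 (14.4%) and 4 of 23 (15.2%) members, shares near those of all genes in AD. Members lower in goblet-like cells numbered 9 of 20 in WT (29.8% of all genes) and 14 of 23 in AD (30.5%).

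Over all kept cells, which mix the classes in different shares, 8 of 32 members were at least 1.5-fold higher in AD (8.86% of all genes) and 4 were lower (17.1%). Plasma-like cells were 50 of 1546 WT and 826 of 4687 AD kept cells, and cell numbers and RNA per cell cannot be told apart in such sums. The comparison within epithelial-like cells gave close summed levels, with an AD to WT ratio of 0.940 (0.901 to 0.982). Of 26 members with at least 20 UMIs, 3 were at least 1.5-fold higher in AD, where 8.40% of all 14344 genes were, and 6 were at least 1.5-fold lower, where 15.3% were. The member shares were 11.5% and 23.1%. By role, the summed ratio was 0.312 (0.238 to 0.407) for the IFIT family, 0.807 (0.751 to 0.868) for the transcription factors, 0.958 (0.819 to 1.12) for the OAS family and 1.72 (1.30 to 2.29) for the MX and GBP GTPases. In the IFIT family, Ifit1bl1 gave 101 of the 141 WT UMIs, but it was not alone in being lower. Of the 4 IFIT genes with at least 20 UMIs, 3 were at least 1.5-fold lower, and Ifit1 went the other way. A single gene carries the GTPase ratio: Mx1 gave 35 of 66 WT and 179 of 245 AD UMIs of that group. The median log2 ratio over 3 GTPase genes was -0.20. The higher members were Mx1, Rtp4 and Ifit1, and the lower ones Ifit2, Ifit1bl1, Ifit1bl2, Ifi35, Oas1a and Irf9. The count of lower members was 12 when each cell counted equally, and 12 or 18 when the mitochondrial limit was 50% or absent. The members counted and the shares of all genes at those settings are not given here, so nothing is read from these counts.

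Ifit1bl1 stood at 14.0 CPM in WT and 2.89 CPM in AD epithelial-like cells (101 and 45 UMIs; ratio 0.206, 0.142 to 0.296). In WT, 63.4% of its UMIs came from 5 cells. Ifi35 was at 25.4 and 13.3 CPM (183 and 207 UMIs; ratio 0.523, 0.427 to 0.642), and its UMIs were found in 21.5% of WT and 12.3% of AD cells. Oas1a was at 15.3 and 10.1 CPM (ratio 0.660, 0.514 to 0.850). These 3 genes differed between the libraries by more than counting error, but no replicate library shows how much wild-type colons differ among themselves. Mx1 was at 4.86 and 11.5 CPM (ratio 2.37, 1.64 to 3.50), found in 4.29% and 5.51% of cells. Most of those Mx1 UMIs were in goblet-like cells, 26 of 35 in WT and 155 of 179 in AD, and goblet-like cells made up 95 of 536 and 390 of 1434 epithelial-like cells.

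**Figure D3:**
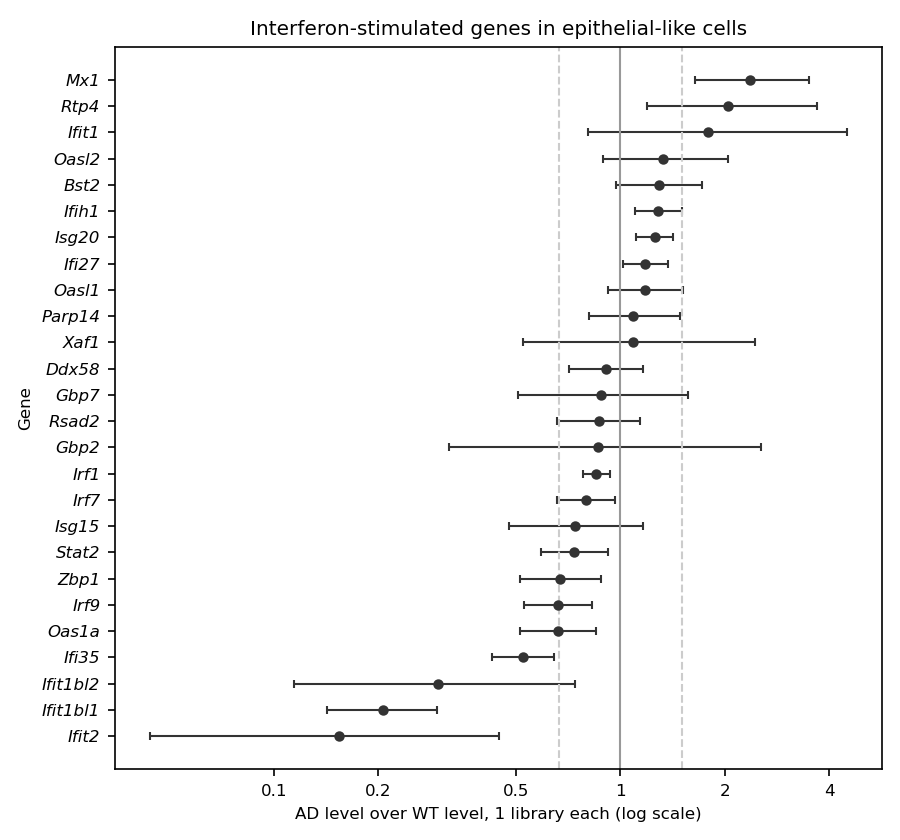
Ratio of the AD to the WT level of each member with at least 20 UMIs in kept epithelial-like cells, on a log scale, with exact 95% intervals for counting error, 1 library per genotype, and dashed lines at 1.5-fold. Ifit2, Ifit1bl1 and Ifit1bl2 lie farthest to the left and Mx1 farthest to the right, at 2.37.

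By subclass, goblet-like cells had 3 of 16 members higher (8.34% of all genes) and 6 lower (13.9%) in AD. Mx1 was at 15.6 CPM in WT and 30.7 CPM in AD, Ifi27 at 18.6 and 38.5 CPM and Irf7 at 16.8 and 8.33 CPM. Colonocyte-like cells had 4 of 21 higher (11.2%) and 5 lower (8.17%). Zbp1 was at 26.6 CPM in WT and 9.89 CPM in AD (ratio 0.372, 0.243 to 0.570), found in 29.0% and 8.56% of cells. Isg20 was at 11.8 and 28.7 CPM (ratio 2.43, 1.51 to 4.09). Crypt-like cells had 3 of 19 members past 1.5-fold in each direction (11.4% and 13.4%), and their summed ratio was 0.995 (0.922 to 1.07). Most WT crypt-like cells were of cluster 6 (157 of 280) and most AD ones of cluster 5 (341 of 540), and for colonocyte-like cells these were cluster 14 (61 of 100) and cluster 7 (252 of 432).

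Enteroendocrine-like cells had the lowest summed ratio among the kept classes with at least 20 cells in both libraries, 0.698 (0.595 to 0.817), from 738 CPM in 61 WT cells and 515 CPM in 72 AD cells. Of 9 members, 0 were higher (12.8% of all genes) and 4 were lower (17.3%): Irf7, Irf9, Stat2 and Ifi35. Ifi35 was at 73.4 and 14.9 CPM, and 83.8% of its 37 WT UMIs came from 5 cells. Lymphocyte markers in these cells summed to 623 CPM in WT and 288 CPM in AD, with 16 and 14 of the 23 markers at 0. Their part in the result was not tested.

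Among kept cells of the stromal and immune classes the summed ratios were as follows. Fibroblast-like cells had 1.03 (0.951 to 1.11), endothelial-like cells 1.00 (0.886 to 1.13), plasma-like cells 1.01 (0.915 to 1.12) and lymphocyte-like cells 1.02 (0.920 to 1.14). Macrophage and monocyte-like cells had 1.16 (1.00 to 1.34), which became 0.878 at resolution 2 and 1.41 without the 5 richest cells of each library, and B-like cells 0.850 (0.696 to 1.04). In fibroblast-like cells 4 of 23 members were higher (11.8% of all genes) and 0 lower (10.0%), with Gbp3 at 6.44 and 19.7 CPM from 6 and 53 UMIs. In endothelial-like cells 5 of 15 were higher (16.2%) and 2 lower (15.2%). In macrophage and monocyte-like cells 4 of 14 were higher (21.1%) and 0 lower (14.7%), Gbp3 among them at 22.2 and 53.7 CPM. In B-like cells 0 of 9 were higher (17.2%) and 1, Oasl1, was lower (9.46%).

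Plasma-like cells had 6 of 22 members higher (19.4%) and 6 lower (20.5%) in AD, in 50 WT and 826 AD cells. Gbp2 was at 26.5 and 67.8 CPM (ratio 2.56, 1.42 to 5.17), found in 20.0% and 28.5% of cells. All 12 WT plasma-like UMIs of Ifit1 came from 1 cell, so its 28.9 against 1.52 CPM rests on that cell. Lymphocyte-like cells had 3 of 17 higher (17.0%) and 2 lower (11.4%). Isg15, the ubiquitin-like modifier, was at 55.2 and 86.0 CPM there (ratio 1.56, 1.06 to 2.31) and Gbp2 at 13.5 and 34.2 CPM. Red cell markers in lymphocyte-like cells summed to 164 and 2827 CPM (2 of 6 at 0 in both) and plasma cell markers to 953 and 5045 CPM (2 and 1 of 11 at 0), and their part in these differences was not tested. The protease that removes Isg15, Usp18, was nearly absent, with 4 UMIs in WT and 0 in AD epithelial-like cells.

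The libraries differed most among cells that the 25% mitochondrial limit removes. Clustered with no limit, colonocyte-like cells with 10 to 25% mitochondrial UMIs had 560.1 CPM in 95 WT cells and 505 CPM in 361 AD cells, and 5 of 20 members were higher in AD (10.3% of all genes) and 4 lower (8.91%). In all epithelial-like cells the counts were 4 of 17 higher (6.98%) and 4 lower (20.1%) up to 10%, and 3 of 24 higher (8.74%) and 5 lower (15.4%) at 10 to 25%. In colonocyte-like cells at 25 to 50% the levels were 1411 CPM (1363 to 1460.0, 516 cells) and 676 CPM (632 to 724, 255 cells), a ratio of 0.479 (0.444 to 0.517). Above 50% they were 2033 CPM (522 cells) and 719 CPM (69 cells), a ratio of 0.354 (0.295 to 0.421). WT colonocyte-like cells stood above AD ones in both upper bands, with intervals far apart. At 25 to 50%, 0 of 21 members were higher in AD (13.4% of all genes) and 13 were lower (14.2%). Above 50%, 0 of 19 were higher (22.3%) and 16 were lower (20.7%).

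All stromal cells pooled had AD to WT ratios of 0.868 (0.814 to 0.925) up to 10%, 0.696 (0.598 to 0.810) at 10 to 25% and 0.511 (0.322 to 0.781, 44 and 20 cells) at 25 to 50%. Immune cells had 1.24 (1.17 to 1.32), 1.12 (0.952 to 1.33) and 1.15 (0.882 to 1.49) in the same bands. Those sums mix classes in different shares.

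Crypt-like levels were 463 and 467 CPM at 25 to 50% (ratio 1.01, 0.888 to 1.15, 394 and 223 cells) and 564 and 529 CPM above 50% (ratio 0.938, 0.777 to 1.13). Goblet-like cells at 25 to 50% had 568 and 464 CPM (ratio 0.816, 0.634 to 1.05, 69 and 105 cells). The level over 25% relative to that up to 25% was 2.88-fold in WT colonocyte-like cells (2.68 to 3.10) and 1.34-fold in AD ones (1.24 to 1.45). In crypt-like cells it was 1.44-fold and 1.45-fold. In WT colonocyte-like cells 19 of 24 members were at least 1.5-fold higher over 25% (30.3% of all genes), and in AD 7 of 20 (20.7%).

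**Figure D4:**
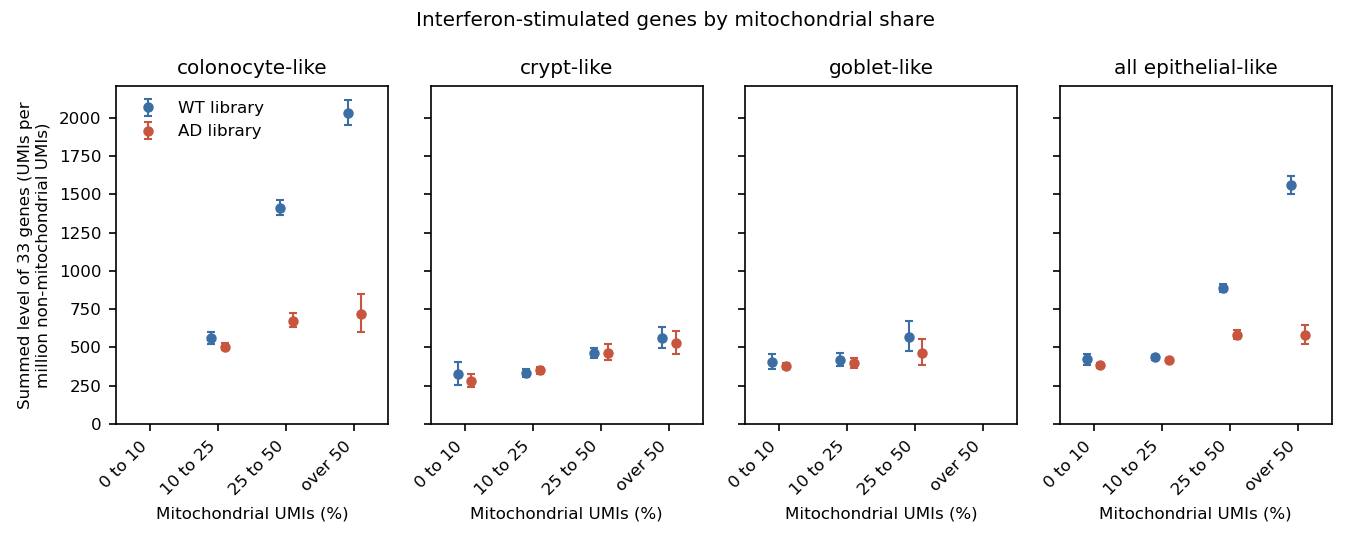
Summed level of the 33 genes (CPM) by share of mitochondrial UMIs in colonocyte-like, crypt-like, goblet-like and all epithelial-like cells, clustered with no mitochondrial limit, with exact 95% Poisson intervals and bands of at least 20 cells in both libraries. The WT points leave the AD points in colonocyte-like cells over 25%, at 1411 against 676 and 2033 against 719 CPM, and not in crypt-like cells.

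Ifit1bl1 led the difference. At 25 to 50% it had 938 UMIs in 258 of 516 WT cells and 45 UMIs in 18 of 255 AD cells, 406.0 against 36.0 CPM (ratio 0.0887, 0.0642 to 0.120). Irf7 was at 182.0 and 79.2 CPM, Parp14, an ADP-ribosyltransferase, at 46.7 and 15.2 CPM, and Mx1 at 27.3 and 4.80 CPM. Ifih1, Irf9, Oasl2 and Ifi27 did not differ beyond counting error in that band, at 76.1 and 72.8, 25.1 and 23.2, 27.7 and 28.0, and 52.3 and 56.0 CPM.

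Among colonocyte-like cells, cluster 1 of the clustering with no limit was singled out because its summed member level was the highest among colonocyte-like clusters. It held 670 WT cells (58.9% of WT colonocyte-like cells) and 12 AD cells (1.69%), with median mitochondrial shares of 50.1% and 43.1%. The members and the other interferon list genes had been left out of the genes used for clustering. Its leading genes were Ifit1bl1, Cyp2d9, Aqp8, Cyp2d12 and Duox2, an oxidase that makes hydrogen peroxide, which stood at 3754 CPM in its WT cells and 156 CPM in other WT colonocyte-like cells. The summed member level was 3269 CPM (3172 to 3368) in the WT cells of the cluster and 3301 CPM (2501 to 4277) in its 12 AD cells, although 5 of those AD cells held 70.2% of their 57 member UMIs. The cluster is drawn almost wholly from 1 library, so a feature of that library and a cell state cannot be told apart.

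The cluster was chosen by member level and is almost all WT, so leaving it out had to lower the WT level, and the values that follow are a description. Colonocyte-like cells over 25% outside it had 676 CPM (379 WT cells) and 650.2 CPM (312 AD cells), a ratio of 0.962 (0.886 to 1.05) in place of 0.420 (0.392 to 0.449) with it. At 25 to 50% the cells outside it had 620.4 and 654 CPM (ratio 1.05, 0.960 to 1.16), and above 50% they had 842 and 625 CPM (ratio 0.742, 0.599 to 0.913). Up to 25%, they had 511 and 508 CPM, a ratio of 0.994 (0.915 to 1.08). Of the 670 WT cells, 659 were over 25% mitochondrial UMIs and 11 were not, and those 11 held 92 member UMIs (4185 CPM). When only kept cells were clustered, 3 of those 11 fell in colonocyte-like cluster 14 and 7 in crypt-like cluster 6. The other 1 fell in a cluster without a class name. The colonocyte-like and crypt-like ones are thus among the kept WT epithelial-like cells described above.

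Within WT, the cluster exceeded the other colonocyte-like cells at least 1.5-fold for 22 of 24 members (29.5% of all genes), and Isg20 alone was lower (28.7% of all genes). The choice of the cluster used these same levels, so nothing is read from that count. Ifit1bl1 had 1241 CPM in the cluster, found in 70.4% of its cells, and 32.9 CPM in other colonocyte-like cells, found in 12.6% (ratio 37.7, 31.4 to 45.7). Ifit1bl2 was at 87.6 and 5.09 CPM, and Ifit1, across the shared promoter, had 45 and 10 UMIs (12.7-fold higher in CPM, 6.31 to 28.3). All 4 transcription factors were higher, with Irf7 at 398 and 58.9 CPM and Stat2 at 73.3 and 20.3 CPM. Oasl1 was at 110.3 and 15.3 CPM, Mx1 at 78.6 and 6.69 CPM and Rsad2 at 49.1 and 4.28 CPM. Ifi27 was alone in staying within 1.5-fold, at 48.4 and 53.0 CPM, and Isg20 was at 8.31 and 20.6 CPM.

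**Figure D5:**
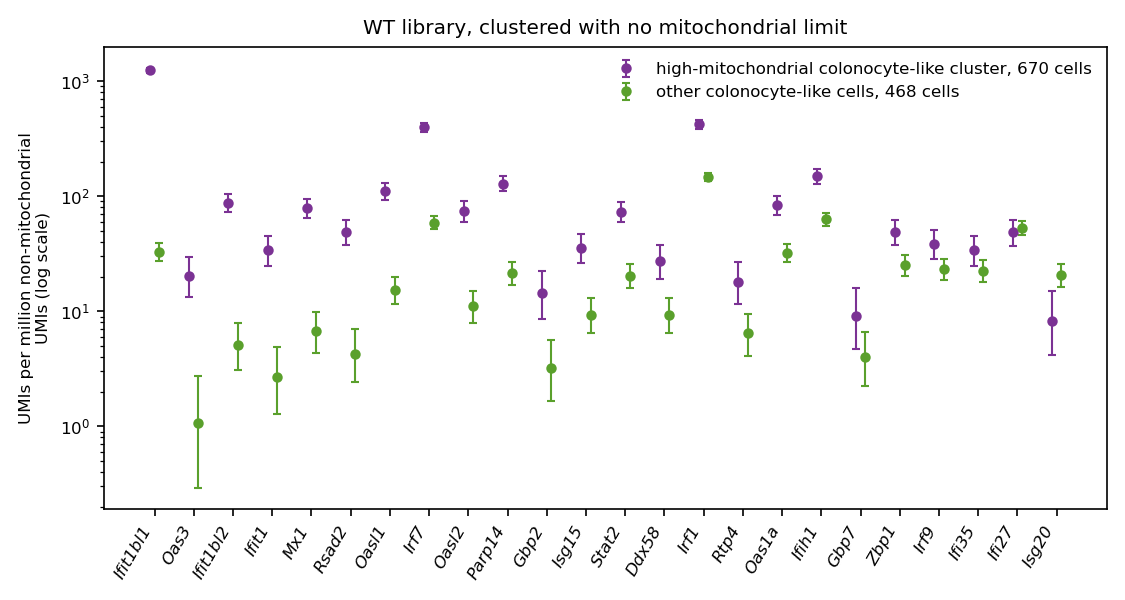
Level of each member with at least 20 UMIs (CPM, log scale) in the WT cells of colonocyte-like cluster 1 and in the other WT colonocyte-like cells, clustered with no mitochondrial limit, with exact 95% Poisson intervals. Ifit1bl1 stands at 1241 against 32.9 CPM, while Ifi27 is level and Isg20 is reversed.

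Other measures moved with this cluster. Its WT cells had a median depth of 4095.0 UMIs against 9063.0 in other WT colonocyte-like cells. Red cell markers summed to 1829 CPM against 132 CPM, plasma cell markers to 5033 against 477 CPM, macrophage and monocyte markers to 243 against 90.5 CPM, and general immune markers to 57.4 against 20.1 CPM. By the Jchain tracer, plasma cell RNA could give 0.250% of the cluster's member UMIs. For the other cell types, their part in the member levels was not tested. Among 19 immediate early and handling genes, 15 were at least 1.5-fold lower in the cluster (28.7% of all genes) and 0 were higher (29.5%). Their median log2 ratio was -1.66. Of 7 housekeeping genes 4 were lower and 0 higher, with a median log2 ratio of -1.52. How far such shifts move the member levels was not tested.

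The wider pathway was measured from lists. Ligand transcripts were nearly all Ifng, with 210 WT and 348 AD UMIs in kept cells, 210 and 299 of them in lymphocyte-like cells (283.0 and 292.0 CPM). Of the other 20 ligand genes listed in the tables, Ifnz had 1 UMI in WT, and Ifna14, Ifnab and Ifnb1 had 1 each in AD. The interferon lambda receptor gene Ifnlr1 was at 16.0 and 9.89 CPM in colonocyte-like cells and had 0 UMIs in endothelial-like cells of both libraries. Ifnar2, a type I receptor chain, was at 174.0 and 129.0 CPM in endothelial-like cells and 0.591 and 3.23 CPM in colonocyte-like cells. The shares over all genes in epithelial-like cells, 8.40% higher and 15.3% lower, stand beside all the list counts that follow for those cells. In epithelial-like cells 0 of 8 receptor and kinase genes passed 1.5-fold in either direction between genotypes, with Jak1 at 165.0 and 201.0 CPM. Of 11 signal and feedback genes 1 was lower, Socs3 at 35.0 and 20.3 CPM. Of 9 other sensors and adaptors 1, Cgas, was lower.

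Among 36 other interferon-induced genes in epithelial-like cells, 4 were higher and 7 lower in AD, shares close to those of all genes, with Ifitm2, which blocks viral entry, at 149.0 and 81.2 CPM. Of 7 interferon gamma targets 1 was higher (Cd274) and 2 lower (Cxcl9 and Nos2). Within WT, colonocyte-like cluster 1 exceeded the other colonocyte-like cells for 20 of 32 other interferon-induced genes, with 4 lower, and for 4 of 7 receptor and kinase genes, where 29.5% of all genes were higher and 28.7% lower. The cluster was chosen by the level of members of the same pathway, so nothing is read from these counts either. Parp12 was at 245.0 and 81.1 CPM, Oas1g at 112.0 and 21.7 CPM and Nos2, the inducible nitric oxide synthase, at 233.0 and 1.87 CPM.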

How the data were processed

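Droplet RNA libraries of 1 WT and 1 AD colon suspension were analysed, and the kit was not settled. The deposited matrices hold unnormalised UMI counts. Per the submitters' processing notes, the authors made them with Cell Ranger 3.0.1 and STAR on mm10, and the notes also name Seurat 3.0.2. Of the 33083 gene identifiers, 31350 have an entry in the mm10 GENCODE annotation used here, and the annotation used for counting was not settled. A cell needed 500 UMIs, 200 genes and no more than 25% of UMIs from mitochondrial genes. Scrublet, at an assumed rate of 0.06, marked 4 cells in each library, under 0.5%, so doublets were in effect not removed. Both libraries were clustered together in scanpy 1.11.5 (Python 3.11.15) on 2000 variable genes without mitochondrial genes, members or pathway genes, with 30 components, 15 neighbours and Leiden resolution 1. Classes were named from at least 3 markers. No class is known to lack these genes, so no class gave a background of free RNA. UMIs were summed per class and library over non-mitochondrial UMIs. Sums carry exact Poisson, shares Clopper-Pearson and ratios conditional exact intervals at 95%. With 0.5 counts added, genes of at least 20 UMIs were counted past 1.5-fold. A count of 0 allows 3 counts. The ratio and thinning code was tested on simulated data. Depth ranged from 500 UMIs upward, with medians of 3845.5 (WT) and 3002.0 (AD) per barcode. Any member could be named, in full for the 3 with most UMIs per role and the 3 largest and smallest ratios per class, and any ligand or receptor gene. Members, lists and comparisons were chosen with earlier results of these data known, and the mitochondrial comparisons and cluster 1 were taken up after seeing them. Alternatives are in the closing section. The handling and housekeeping lists served as checks: in kept epithelial-like cells 1 of 19 and 0 of 7 genes were higher and 3 and 2 lower in AD.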

Additional observations from a re-analysis of the deposited data

How the results depend on the processing

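No paired analysis was possible because each genotype had 1 library and the labels carry no replicate numbers, so leaving out a replicate was also not possible. Of the recomputed summed levels, counts and thinned share, 122 values stayed within the limits set for them and 26 moved, and some ratios crossed 1: colonocyte-like cells at a 10% limit, crypt-like cells at 50%, and macrophage and monocyte-like cells at resolution 2. Of the single genes, 51 values stayed and 1 moved, Rsad2 in epithelial-like cells, from a log2 ratio of -0.22 to 0.42 without the 5 richest cells. Classes under 20 cells in either library got no alternative. The AD to WT ratio of the summed level moved out of its counting interval as follows. At a 10% mitochondrial limit it was 1.07 in colonocyte-like and 0.853 in enteroendocrine-like cells. At 50% it was 0.694 in epithelial-like, 0.557 in colonocyte-like and 1.22 in crypt-like cells, and with no limit 0.586, 0.422 and 0.907. With cells counting equally it was 0.760 in epithelial-like, 0.831 in goblet-like, 0.665 in colonocyte-like, 0.817 in crypt-like and 1.18 in endothelial-like cells. At resolution 2 it was 0.878 in macrophage and monocyte-like cells. Without the 5 cells of each library with the most member UMIs it was 1.41 there and 1.13 in plasma-like cells. Members higher in AD in epithelial-like cells numbered 6 with genes of at least 1 UMI, and lower ones 12 at a 50% limit, 18 with no limit and 12 with cells counting equally. These counts stand without the shares of all genes at those settings, and nothing is read from them. The thinned share ratio of 0.654 (0.345 to 1.28) fell to 0.261 in the lowest of 20 draws.

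For colonocyte-like cells over 25% mitochondrial UMIs all alternatives followed a first look at the values. The ratio of 0.420 was 0.493 when scaled to all UMIs, 0.340 with cells counting equally, 0.561 without Ifit1bl1, 0.498 for 25 to 50% clustered at a 50% limit, and 0.962 without the cluster of highest level. The cause of the other shifts was not tested. A member with few UMIs has a wide interval whatever the setting, and 1 library per genotype limits every comparison.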
